A study of Rattus norvegicus with 20 samples.

Results

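Glucose uptake and glycolysis were followed through 5 genes in rat mesenchymal stromal cells (MSCs), namely Slc2a1 (ENSRNOG00000007284), Hk2 (ENSRNOG00000006116), Gapdh (ENSRNOG00000018630), Pkm (ENSRNOG00000011329) and Ldha (ENSRNOG00000013009). They were chosen by their identifiers and not by any measured value, and they are 5 of the 30560 genes in the count table. All 5 passed the filter on low counts that left 14034 genes for testing. The symbols came with the list of identifiers and could not be checked against an annotation of those identifiers here.

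Glucose enters most cells through facilitative transporters, of which GLUT1, the product of Slc2a1, is the widespread one. Hexokinase 2, from Hk2, phosphorylates glucose and so traps it in the cell, GAPDH oxidises glyceraldehyde 3-phosphate, pyruvate kinase M, from Pkm, makes pyruvate and ATP, and lactate dehydrogenase A, from Ldha, turns pyruvate into lactate while regenerating NAD+. Proliferating stromal cells are known to rely strongly on this route, and several of its genes are textbook targets of the hypoxia-inducible factors and of MYC.

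The cells came from the bone marrow of female Wistar rats of unstated age, were enriched with anti-CD54 and anti-CD90 beads, and carried no genetic change. They were grown on gelatin-coated silicone of 2 kPa (soft) or 100 kPa (stiff) and passaged every week. The study also describes a first expansion passage on the same surface, and does not say whether the weeks include it. The labels name passages 1, 3 and 5, so time and passage number cannot be told apart. Groups 1w2, 1w100, 3w2 and 3w100 spent 1 or 3 weeks on the surface named last (n = 3 each), and 5w2 and 5w100 spent 5 weeks (n = 2 each). In 3w2→2w100 and 3w100→2w2 (n = 2 each), 3 weeks of priming on one surface were followed by 2 weeks on the other. The study describes replicates as MSCs of different rats, but which rat gave which library is not given, so p-values measure the spread between these libraries.

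Poly(A) RNA was sequenced in 20 libraries of 16127907 to 24139128 gene counts, with a median of 18716923. Levels are given as CPM, read counts brought to a common library size after TMM, edgeR's correction for library composition, and are compared only within a gene because transcript lengths were not used. The 5 genes together took 0.182% to 0.341% of the counts of a library. The lowest counts in any library were 466 for Slc2a1, 247 for Hk2, 13579 for Gapdh, 11077 for Pkm and 4708 for Ldha. Counting error at these minima was 4.63%, 6.36%, 0.858%, 0.950% and 1.46% of the value, in the same order. In RNA from a whole culture, fewer expressing cells and less RNA per cell cannot be told apart. Markers of MSCs and of other cell types could not be examined because the identifiers were not paired with symbols.

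The 250 bases before the RefSeq start of Slc2a1, Hk2 and Ldha are shown because these 3 genes passed the threshold in at least one fit of the comparison between priming surfaces described further on. The sequences are from assembly GRCr8, whereas the reads had been aligned to mRatBN7.2, and nothing was converted between them. Each runs 5′ to 3′ along the strand of its gene, at chr5:138002272-138002521 (plus strand) for Slc2a1, chr4:116841276-116841525 (minus strand) for Hk2 and chr1:106507842-106508091 (plus strand) for Ldha. Capitals mark matches, on either strand, to the hypoxia response element cores ACGTG and GCGTG, the E-box CACGTG, the Sp1 box GGGCGG and the TATA box TATAAA.
Slc2a1: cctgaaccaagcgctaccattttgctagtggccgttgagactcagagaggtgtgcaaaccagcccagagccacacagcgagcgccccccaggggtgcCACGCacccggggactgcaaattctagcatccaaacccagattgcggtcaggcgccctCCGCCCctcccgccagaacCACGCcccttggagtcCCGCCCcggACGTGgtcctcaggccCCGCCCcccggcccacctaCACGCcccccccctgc
Hk2: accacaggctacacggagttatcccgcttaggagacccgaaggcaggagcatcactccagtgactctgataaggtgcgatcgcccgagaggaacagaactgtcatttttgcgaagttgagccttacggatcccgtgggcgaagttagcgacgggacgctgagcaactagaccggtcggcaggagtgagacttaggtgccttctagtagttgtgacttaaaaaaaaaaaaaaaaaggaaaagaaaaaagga
Ldha: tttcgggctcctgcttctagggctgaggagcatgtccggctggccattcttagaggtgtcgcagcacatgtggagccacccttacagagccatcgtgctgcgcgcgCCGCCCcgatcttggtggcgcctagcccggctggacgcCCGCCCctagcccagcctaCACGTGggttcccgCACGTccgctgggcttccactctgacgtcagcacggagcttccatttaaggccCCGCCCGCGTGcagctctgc

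The Slc2a1 window held 1 match to ACGTG, 3 to GCGTG and 3 to GGGCGG. The Ldha window held 3 matches to ACGTG, of which 2 were the opposite strands of its single CACGTG, together with 1 to GCGTG and 3 to GGGCGG. The Hk2 window held none of the 5 motifs. Of the windows not printed, that of Gapdh held 1 ACGTG, 2 GCGTG and 1 TATAAA, and that of Pkm held 1 GGGCGG. Among all 33469 RefSeq promoter windows of 250 bases, 16.6% held ACGTG, 25.9% GCGTG, 5.59% CACGTG, 30.5% GGGCGG and 12.9% TATAAA. These matches describe the letters of the windows only.

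Across the 20 libraries the highest level exceeded the lowest 2.64-fold for Slc2a1, 2.53-fold for Hk2, 2.62-fold for Ldha, 2.01-fold for Gapdh and 1.66-fold for Pkm. The 8 groups accounted for 63.9% of the variance of log2 CPM for Slc2a1 and 64.3% for Hk2, against 37.6% for Ldha, 35.5% for Pkm and 25.8% for Gapdh. The median over all genes tested was 52.5%, and 8 groups of 20 libraries take 36.8% of the degrees of freedom (7 of 19). The shares of Slc2a1 and Hk2 were thus above that median, and those of the 3 later enzymes were below it. Slc2a1 was highest in 3w2→2w100 (59.9 ± 9.58 CPM, SD, n = 2) and lowest in 3w100 (31.95 ± 3.93 CPM, n = 3). Hk2 was highest in 1w2 (27.7 ± 7.29 CPM, n = 3) and lowest in 5w100 (14.5 ± 1.33 CPM, n = 2). When the groups were ordered by their means, only 1 of the 7 steps between neighbours exceeded the larger SD of the neighbouring groups for Slc2a1 (1w100 to 3w2) and for Hk2 (3w100→2w2 to 5w100). None of the 7 steps did so for Gapdh, Pkm or Ldha.

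**Figure D1:**
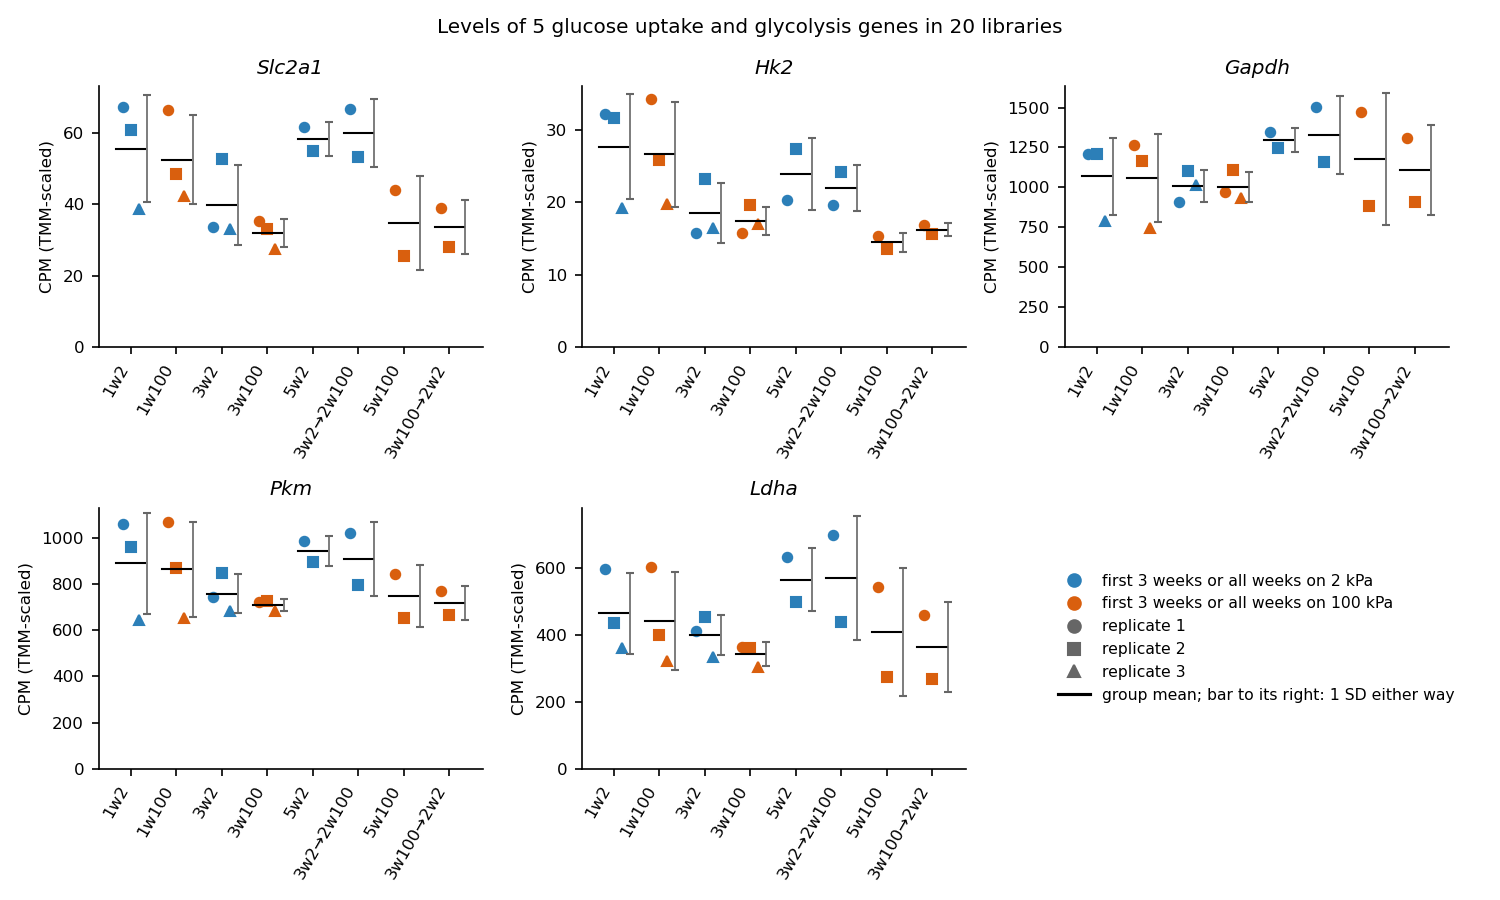
TMM-scaled CPM (vertical axes, from 0) of each gene in each library, by group along the horizontal axes, with shapes for replicate numbers, black lines for group means and bars of 1 SD either way. The 4 soft-primed 5-week libraries sit at 53.2 to 66.7 CPM for Slc2a1, above the 4 stiff-primed ones at 25.5 to 44.1 CPM, while Gapdh overlaps.

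The first question was whether the stiffness of the surface alone changed these genes. After 1 week the stiff and soft cultures were close. Slc2a1 was at 67.4, 60.9 and 38.6 CPM in 1w2 and at 66.5, 48.6 and 42.4 CPM in 1w100. Hk2 was at 32.1, 31.6 and 19.3 CPM in 1w2 and at 34.2, 25.8 and 19.8 CPM in 1w100. In both genes the third library was the lowest on either surface, and the groups overlapped. The log2 fold changes of 1w100 over 1w2 ran from -0.08 for Slc2a1 to -0.01 for Gapdh, with 95% intervals that spanned -0.71 to 0.57 over the 5 genes. None of the 5 passed the threshold, an adjusted p below 0.05 in edgeR's quasi-likelihood test with Benjamini-Hochberg adjustment over all genes, where 0% of all genes did, and none had an unadjusted p below 0.05.

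After 3 weeks Slc2a1 was at 33.6, 52.6 and 33.2 CPM in 3w2 and at 35.3, 33.0 and 27.6 CPM in 3w100. The second soft library stood above all the others, and the groups overlapped. Hk2 was at 15.8, 23.2 and 16.5 CPM in 3w2 and at 15.7, 19.6 and 17.0 CPM in 3w100, again with the second library highest. The log2 difference of 3w100 from 3w2 was -0.31 (SE 0.26) for Slc2a1, -0.22 (SE 0.30) for Ldha, -0.09 for Pkm, -0.08 for Hk2 and -0.0045 for Gapdh. None of the 5 passed the threshold in edgeR, with 0% of all genes called, and none had an unadjusted p below 0.05.

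After 5 weeks the distance was wider. Slc2a1 was at 61.7 and 54.9 CPM in 5w2 and at 44.1 and 25.5 CPM in 5w100. Hk2 was at 20.4 and 27.4 CPM in 5w2 and at 15.4 and 13.5 CPM in 5w100. For both genes the stiff libraries lay below the soft ones, as they did for Pkm, at 988 and 896 CPM in 5w2 and 842 and 654 CPM in 5w100. Libraries without overlap, lower on stiff, were common here, at 21.6% of all genes. The log2 difference of 5w100 from 5w2 was -0.75 (SE 0.32) for Slc2a1 and -0.72 (SE 0.28) for Hk2, with edgeR adjusted p = 0.276 and 0.230, beside -0.47 (SE 0.37) for Ldha, -0.33 (SE 0.24) for Pkm and -0.14 (SE 0.29) for Gapdh. The size rested on single libraries. Without replicate 1 of 5w100 Slc2a1 was at -1.20, Ldha at -1.05, Pkm at -0.53 and Gapdh at -0.55, and without replicate 2 of 5w100 they were at -0.40, -0.052, -0.16 and 0.19. Hk2 ran from -0.92 to -0.50 when each library was left out in turn. None of the 5 passed, where 0.264% of all genes did, and 2 of them, Slc2a1 and Hk2, had an unadjusted p below 0.05 (0.0328 and 0.0201), as did 15.4% of all genes.

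All 5 log2 differences were negative at each of the 3 times, with medians of -0.06, -0.09 and -0.47 for the 5 genes against 0.0041, 0.0052 and 0 for all genes tested. Deviations from group means correlated between the 5 genes, at r of 0.47 to 0.90, so their signs are not separate observations. At 1 week the differences within single replicate numbers took either sign in each of the 5, as for Hk2 at 0.090, -0.29 and 0.038. Whether the stiffness difference itself changed between 1 and 5 weeks was tested as an interaction. It moved by -0.66 (SE 0.41) for Slc2a1 and by -0.67 (SE 0.36) for Hk2 on the log2 scale, with edgeR adjusted p = 0.824 and 0.759, beside -0.40 (SE 0.47) for Ldha, -0.29 (SE 0.31) for Pkm and -0.12 (SE 0.37) for Gapdh. From 1 to 3 weeks the 5 values ran from -0.23 for Slc2a1 to 0.0093 for Gapdh, and from 3 to 5 weeks from -0.64 for Hk2 to -0.13 for Gapdh. None of the 5 passed in any of the 3 interactions. All 3 interactions called 0% of all genes, and none of the 5 genes had an unadjusted p below 0.05 in them.

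The second question was the effect of time in culture, which here goes with passage number. Slc2a1 and Hk2 fell between 1 and 3 weeks when both surfaces were averaged. Slc2a1 went from a mean of 54.1 ± 12.5 CPM (SD, n = 6) to 35.9 ± 8.60 CPM (n = 6), a log2 fold change of -0.60 (SE 0.18, edgeR adjusted p = 0.0298). Hk2 went from 27.1 ± 6.53 to 18.0 ± 2.95 CPM, also -0.60 (SE 0.16, edgeR adjusted p = 0.0150). The 6 libraries of 3 weeks ran from 27.6 to 52.6 CPM for Slc2a1, against 38.6 to 67.4 CPM at 1 week, so the times overlapped. Pkm (-0.26, SE 0.14), Ldha (-0.29, SE 0.21) and Gapdh (-0.08, SE 0.17) did not pass. The count was 2 of 5, both lower at 3 weeks, where 10.4% of all genes were called lower, and the median of the 5 was -0.29 against -0.0013 for all genes.

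Within each replicate number, with both surfaces averaged, the fall of Slc2a1 was -0.96, -0.38 and -0.42 on the log2 scale. That of Hk2 was -1.07, -0.42 and -0.22, so number 1 moved furthest in both. Gapdh moved by -0.40, -0.10 and 0.34 in the same order, and Pkm by -0.54, -0.22 and 0.07. Numbers were taken to pair the times on stiff only, since deviations of replicate 1 of 1w2 and 3w2 hardly correlated (r = 0.046). On stiff alone Slc2a1 moved by -0.91, -0.56 and -0.62, and Hk2 by -1.12, -0.40 and -0.22. The call for Slc2a1 was lost without any one of 7 libraries, which were replicates 1 and 2 of 1w2, replicate 1 of 1w100, replicates 1 and 3 of 3w2 and replicates 2 and 3 of 3w100, where edgeR adjusted p ran up to 0.0861. The call for Hk2 held without each of the 20 libraries in turn, with edgeR adjusted p of at most 0.0465. With Gapdh counts in place of the library sizes, Hk2 missed the threshold (-0.52, edgeR adjusted p = 0.0714) while Slc2a1 passed (-0.53, edgeR adjusted p = 0.024), where 4.53% of all genes were called lower.

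On the single surfaces none of the 5 genes passed between 1 and 3 weeks. On soft, Hk2 differed by -0.58 (SE 0.23) and Slc2a1 by -0.49 (SE 0.26), with edgeR adjusted p = 0.134 and 0.291, where 8.03% of all genes were called, and Hk2 alone had an unadjusted p below 0.05, as did 22.3% of all genes. Without replicate 3 of 1w2 Hk2 passed there (-0.79, edgeR adjusted p = 0.0483). On stiff, Slc2a1 differed by -0.72 (SE 0.26) and Hk2 by -0.61 (SE 0.23), with edgeR adjusted p = 0.108 and 0.115, where 8.41% were called, and both had an unadjusted p below 0.05, as did 22.7%. Ldha, Pkm and Gapdh were at -0.22, -0.23 and -0.09 on soft and at -0.36, -0.28 and -0.08 on stiff. The 3 stiff libraries of 3 weeks lay below the 3 of 1 week for both genes, which 15% of all genes also did in that direction. With a block for the replicate number, Slc2a1 passed on stiff (-0.70, edgeR adjusted p = 0.0284), where 13.3% of all genes did, and Hk2 did not (edgeR adjusted p = 0.0512).

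From 3 to 5 weeks none of the 5 passed on either surface, where 0% of all genes did, and none had an unadjusted p below 0.05. On soft all 5 values were positive, from 0.31 for Pkm to 0.55 (SE 0.28) for Slc2a1. On stiff Hk2 was at -0.27 (SE 0.26) and the other 4 lay between 0.07 and 0.25. Libraries of 5 weeks lay above those of 3 weeks without overlap for 4 of the 5 on soft, all but Hk2, where 15.8% of all genes did, and on stiff they lay below for Hk2 alone, as for 10.7% of all genes. With both surfaces averaged the values were 0.38 (SE 0.24) for Ldha, 0.34 for Slc2a1, 0.30 for Gapdh, 0.19 for Pkm and 0.05 for Hk2, and again none passed, where 0.0285% of all genes did, nor had an unadjusted p below 0.05. With the block these averages were 0.18, 0.17, 0.15, 0.058 and -0.081, in the same order. On soft alone the block gave 0.18 (Pkm) to 0.39 (Slc2a1). On stiff alone it gave -0.40 (Hk2) to 0.083 (Gapdh), and none of the 5 passed on either surface. The comparisons that share the 3-week groups are not independent of each other.

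**Figure D2:**
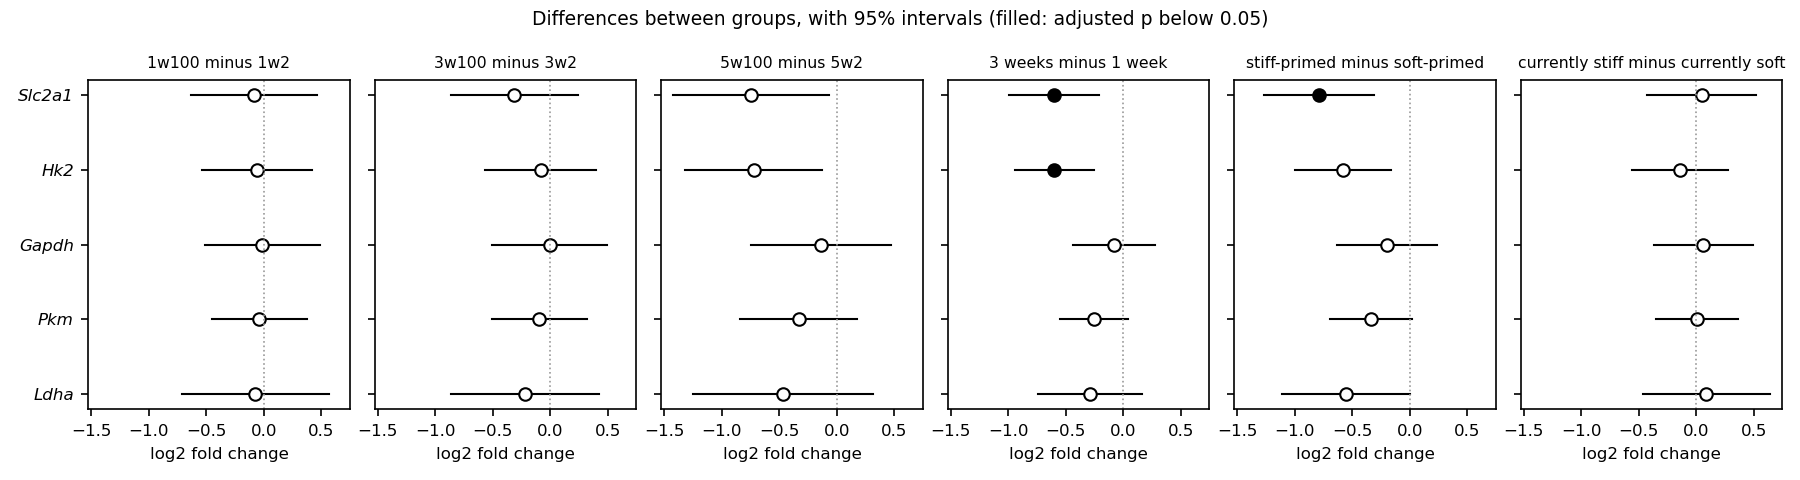
Log2 fold changes (horizontal axes) of the 5 genes (vertical axis) in 6 comparisons, with lines for 95% intervals and filled points for an edgeR adjusted p below 0.05. Slc2a1 and Hk2 are filled for 3 weeks against 1 week, Slc2a1 alone for the priming surface, and the intervals for the current surface all span 0.

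The third question was whether levels at 5 weeks went with the surface of the first 3 weeks. When priming ended, 3w100 against 3w2 had given -0.31 (SE 0.26) for Slc2a1 and -0.08 for Hk2, with overlapping libraries and no call. A difference at 5 weeks is thus not one shown to have been present at the end of priming. The 4 groups of 5 weeks were compared by the surface of the first 3 weeks, with 5w2 and 3w2→2w100 as soft-primed and 5w100 and 3w100→2w2 as stiff-primed. Slc2a1, the transporter, was lower after stiff priming. It stood at 61.7 and 54.9 CPM in 5w2 and at 66.7 and 53.2 CPM in 3w2→2w100. It stood at 44.1 and 25.5 CPM in 5w100 and at 38.9 and 28.2 CPM in 3w100→2w2, so the highest stiff-primed library lay below the lowest soft-primed one. The log2 fold change was -0.79 (SE 0.22, 95% interval -1.27 to -0.31), 1.73-fold lower, with edgeR adjusted p = 0.0391.

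Hk2, which acts on the glucose that has entered, showed the same separation without passing. It stood at 20.4 and 27.4 CPM in 5w2 and at 19.7 and 24.2 CPM in 3w2→2w100. It stood at 15.4 and 13.5 CPM in 5w100 and at 16.8 and 15.6 CPM in 3w100→2w2, and no stiff-primed library reached a soft-primed one. The log2 fold change was -0.58 (SE 0.20, 95% interval -0.999 to -0.16), with edgeR adjusted p = 0.0756. Libraries without overlap, lower after stiff priming, were found for 2 of the 5 genes and for 8.66% of all genes.

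Ldha, the last step towards lactate, ran from 268 to 544 CPM in the stiff-primed and from 439 to 700 CPM in the soft-primed libraries, and these overlapped. Its log2 fold change was -0.56 (SE 0.26, edgeR adjusted p = 0.192). Pkm ran from 654 to 842 CPM against 796 to 1022 CPM, at -0.34 (SE 0.17, edgeR adjusted p = 0.220). Gapdh ran from 885 to 1471 CPM against 1156 to 1502 CPM, at -0.20 (SE 0.20, edgeR adjusted p = 0.565), the smallest value of the 5. In all, 1 of 5 was called, lower after stiff priming, where 3.11% of all genes were called lower, and the median of the 5 was -0.56 against 0 for all genes.

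The call for Slc2a1 depended on how the libraries entered the test. Within replicate numbers 1 and 2 its difference was -0.63 and -1.01 on the log2 scale, and that of Hk2 was -0.31 and -0.82, so both numbers had one direction. With a block for the replicate number, 3 of the 5 passed, where 6.43% of all genes were called lower. They were Slc2a1 (-0.81, edgeR adjusted p = 0.00654), Hk2 (-0.57, edgeR adjusted p = 0.0291) and Ldha (-0.59, edgeR adjusted p = 0.0209). This block assumes that a number has the same effect in all 8 groups. Yet the correlation of same-numbered deviations from group means was as low as -0.209, for replicate 2 of 3w2 and 5w100. The block also does not model the closer likeness of same-numbered libraries within a priming surface. With DESeq2, Slc2a1 (adjusted p = 0.00872) and Hk2 (adjusted p = 0.0439) passed, where 4.76% of the genes it tested were called lower. Fitted on the 4 groups alone, Slc2a1 missed the threshold (-0.80, edgeR adjusted p = 0.111), where 1.48% of the genes tested were called in either direction.

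Over all genes tested, deviations from group means of same-numbered libraries correlated at r = 0.760 between 5w2 and 3w2→2w100. Between 5w100 and 3w100→2w2 r was 0.802, and between groups of unlike priming surface it was 0.168 to 0.245. The main fit counts same-numbered libraries of one priming surface as independent. The labels do not say whether such a pair was split from one culture at 3 weeks. With the counts of every such pair added up, leaving 2 sums against 2, Slc2a1 was at -0.79 and missed the threshold (edgeR adjusted p = 0.238, and -0.80 with 0.0827 under the block), where 0.0787% of the genes tested were called in either direction, and 3.27% under the block. Slc2a1 also missed it without any one of 7 libraries, namely replicate 2 of 1w2, 1w100, 5w100 and 3w100→2w2, replicates 1 and 2 of 5w2 and replicate 1 of 3w2→2w100, where its log2 fold change ran from -0.83 to -0.62 and edgeR adjusted p ran up to 0.184. Without replicate 3 of 1w2 Hk2 passed as well (edgeR adjusted p = 0.0494), and without replicate 1 of 5w100 Ldha did (edgeR adjusted p = 0.0484). The sign of all 5 values stayed negative under each of these settings.

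The current surface was compared over the same 8 libraries. Slc2a1 averaged 47.4 CPM on stiff and 45.9 CPM on soft, a log2 difference of 0.05 (SE 0.22, 95% interval -0.43 to 0.52). Hk2 averaged 18.2 and 20.05 CPM, at -0.14 (SE 0.20, 95% interval -0.56 to 0.27). Gapdh, Pkm and Ldha were at 0.06, 0.01 and 0.09, and none of the 5 passed or had an unadjusted p below 0.05, where 0% of all genes passed. The 95% interval of Ldha, -0.47 to 0.64, was the widest of the 5, and that of Pkm, -0.35 to 0.36, the narrowest. With the block for the replicate number the intervals were narrower, at -0.32 to 0.39 for Slc2a1 and -0.26 to 0.40 for Ldha. None of the 5 passed with it either. Changes within these intervals remain possible in either direction, and no detection limit was computed.

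The moved cultures were then set against those that stayed. Moving soft-primed cells to stiff (3w2→2w100 against 5w2) gave 0.04 (SE 0.31) for Slc2a1 and -0.12 (SE 0.28) for Hk2, and the other 3 lay between -0.05 and 0.04. Moving stiff-primed cells to soft (3w100→2w2 against 5w100) gave -0.05 (SE 0.32) for Slc2a1 and 0.17 (SE 0.28) for Hk2, and the other 3 lay between -0.17 and -0.06. In the second comparison both Hk2 libraries of the moved cells, at 16.8 and 15.6 CPM, lay above both of 5w100, at 15.4 and 13.5 CPM, which 8.42% of all genes also showed as higher, and the libraries of the other genes overlapped in both. None of the 5 passed in either comparison or had an unadjusted p below 0.05, and 0% of all genes passed in both.

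The moved cells were also set against the cultures that had always been on their present surface. On stiff, 3w2→2w100 exceeded 5w100 by 0.79 (SE 0.32) for Slc2a1 and by 0.60 (SE 0.28) for Hk2 on the log2 scale, with edgeR adjusted p = 0.281 and 0.351, beside 0.48 (SE 0.37) for Ldha, 0.28 (SE 0.24) for Pkm and 0.17 (SE 0.29) for Gapdh. On soft, 3w100→2w2 differed from 5w2 by -0.80 (SE 0.32) for Slc2a1 and by -0.56 (SE 0.28) for Hk2, with edgeR adjusted p = 0.277 and 0.394, beside -0.64 (SE 0.37) for Ldha, -0.40 (SE 0.24) for Pkm and -0.22 (SE 0.29) for Gapdh. Libraries did not overlap for 2 of the 5 in the first comparison, Slc2a1 and Hk2, where 17.4% of all genes were higher without overlap. In the second they did not overlap for 4 of the 5, all but Gapdh, where 21.5% of all genes were lower without overlap. None of the 5 passed, where 0.057% and 0.178% of all genes did, and unadjusted p was below 0.05 for both genes in the first comparison and for Slc2a1 in the second, beside 14.1% and 13.5% of all genes. These groups are the ones that also enter the comparison by priming surface.

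Levels relative to Gapdh counts of the same library were examined after the values had been seen, since Gapdh is often taken as a reference gene. At 5 weeks Slc2a1 had 45.7 and 44.2 counts per 1000 Gapdh counts in 5w2 and 44.4 and 46.0 in 3w2→2w100. It had 30.0 and 28.8 in 5w100 and 29.7 and 30.9 in 3w100→2w2. Within each priming surface these 4 ratios lay close together, with a coefficient of variation of 2.02% after soft and 2.91% after stiff priming, against 10.6% and 25.7% for CPM. Counting error of Slc2a1 alone was 2.62% to 4.63% in single libraries. The 2.02% lay below this range and the 2.91% within it, so neither gives a spread of the cells beyond counting. Same-numbered libraries of one priming surface were also alike, so the 4 ratios are not shown to be independent. With Gapdh counts as library sizes, the edgeR fit gave -0.59 for Slc2a1 (adjusted p = 0.0538), which missed the threshold. That fit called 5.19% of all genes in either direction, but only 78 of 14034 lower after stiff priming, against 651 higher. The median of all genes moved to 0.25.

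The other genes did not tighten against Gapdh in the same way. For Hk2 the coefficient of variation rose from 15.7% and 8.92% for CPM to 24.5% and 20.7% for the ratio, after soft and stiff priming. Its ratio was lower in replicate 1 than in replicate 2 in each of the 4 groups, at 15.1 and 22.0 in 5w2 and 10.5 and 15.3 in 5w100. For Ldha it went from 21.1% and 35.7% to 10.6% and 10.7%, and for Pkm from 10.97% and 12.2% to 3.52% and 13.6%. At 1 week Slc2a1 had 41.7 to 56.8 counts per 1000 Gapdh counts over both surfaces, and at 3 weeks 29.6 to 47.7.

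**Figure D3:**
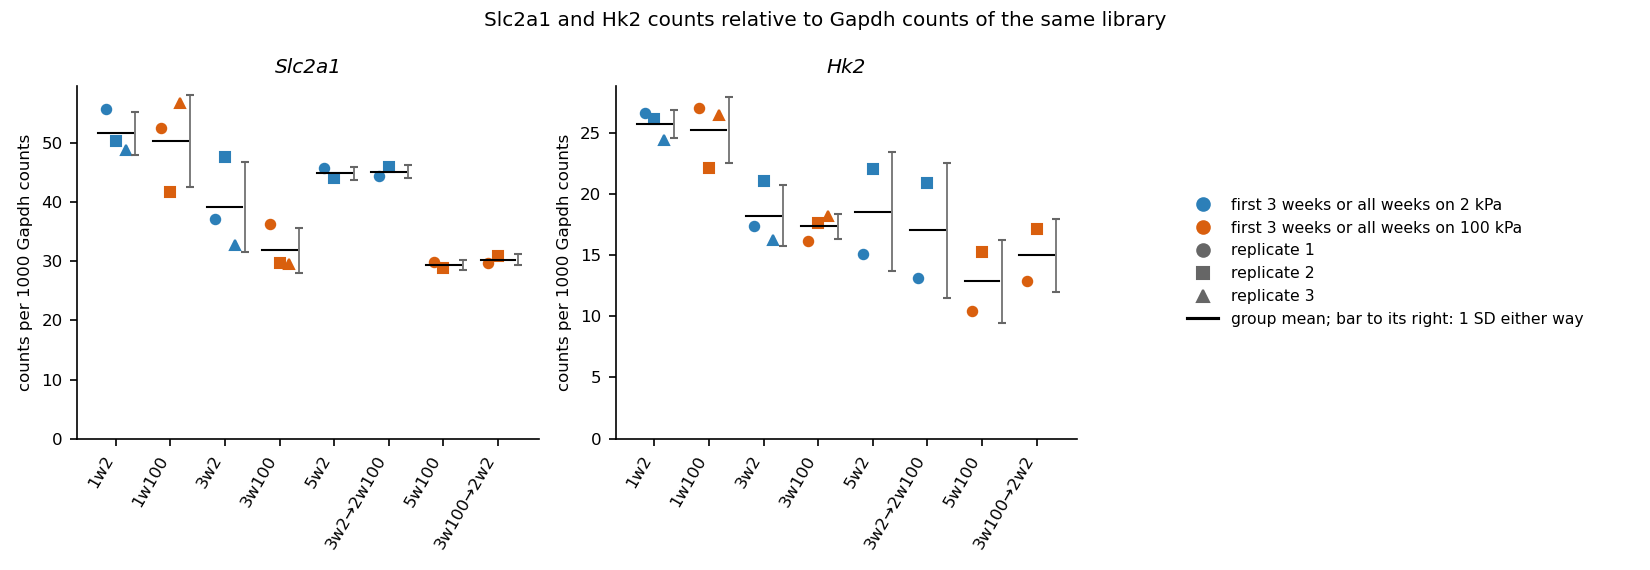
Counts of Slc2a1 and Hk2 per 1000 Gapdh counts (vertical axes, from 0) in each library by group, with shapes for replicate numbers, lines for group means and bars of 1 SD either way. At 5 weeks Slc2a1 lies at 44.2 to 46.0 after soft and at 28.8 to 30.9 after stiff priming, whereas Hk2 splits by replicate number.

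Libraries of one group differed mostly in the same direction for several of the 5 genes. Replicate 3 of 1w2 lay below the mean of its group by 0.33 to 0.49 log2 units in all 5, and replicate 3 of 1w100 by 0.28 to 0.47. These were also the 1-week libraries in which the 5 genes took the smallest share of counts, 0.193% and 0.185%. In each of the 4 groups of 5 weeks replicate 1 exceeded replicate 2 for Slc2a1, Gapdh, Pkm and Ldha, by up to 0.99 log2 units for Ldha in 5w100. Hk2 departed from this pattern, being lower in replicate 1 of 5w2 and of 3w2→2w100.

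Within groups the SD of log2 CPM was 0.40 for Ldha, 0.34 for Slc2a1, 0.31 for Gapdh, 0.30 for Hk2 and 0.25 for Pkm. The median over all genes tested was 0.23, below all 5. Over the 20 libraries Pearson's r of log2 CPM was 0.90 between Slc2a1 and Pkm and between Pkm and Ldha, 0.87 between Slc2a1 and Ldha and 0.81 between Slc2a1 and Hk2. It was lowest between Hk2 and Gapdh, at 0.38. These libraries share groups, replicate numbers and library scaling, so the coefficients describe them only.

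**Figure D4:**
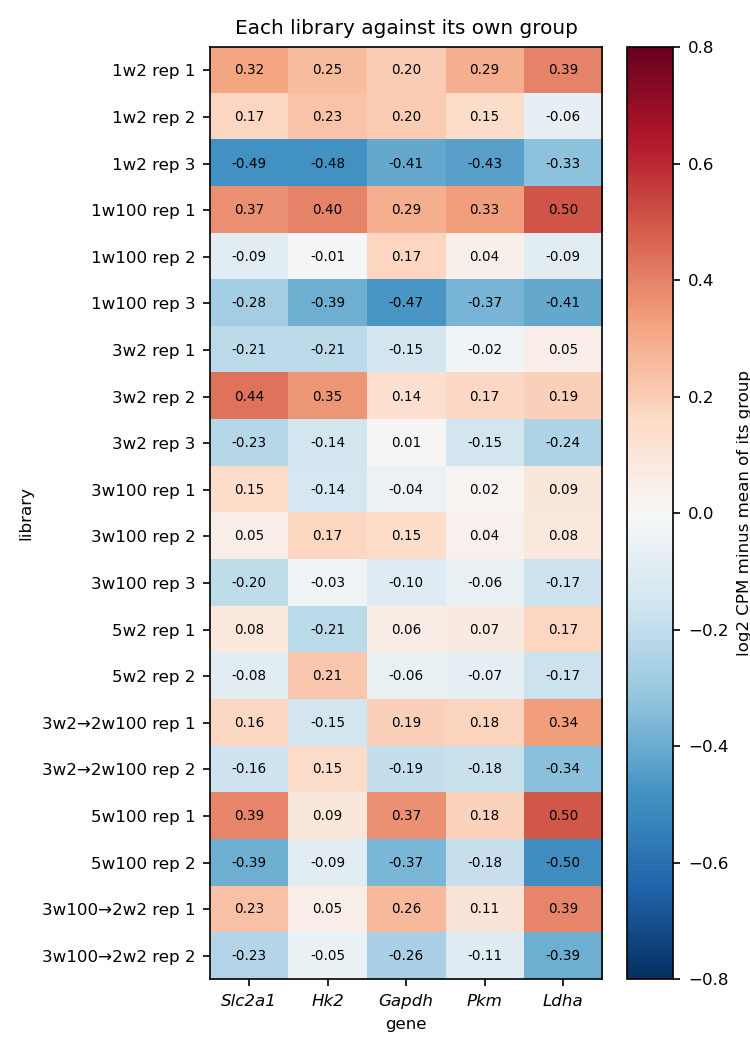
Log2 CPM of each gene (columns) in each library (rows) minus the mean of its own group, printed and coloured from blue for lower to red for higher. Replicate 3 of 1w2 and of 1w100 is blue in all 5 columns, and replicate 1 of each 5-week group is red in all columns but that of Hk2 in 5w2 and 3w2→2w100.

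The genes most like each of the 5 over the 20 libraries are known here by identifier only. For Slc2a1 it was ENSRNOG00000042261 (r = 0.92), for Hk2 ENSRNOG00000027124 (r = 0.92) and for Pkm ENSRNOG00000047276 (r = 0.99). The counts of ENSRNOG00000047276 were 17.5% to 20.1% of those of Pkm in each library. No source used here gives how reads with several matching places were counted, and glycolysis genes such as Gapdh, Pkm and Ldha have processed copies in the rat genome. Their counts are therefore uncertain to the extent that reads were divided among such copies. What ENSRNOG00000047276 is, and whether it shares reads with Pkm, was not tested.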

How the data were processed

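Poly(A) RNA of rat MSCs was sequenced from TruSeq Stranded mRNA libraries. The authors trimmed reads with Trim Galore, checked them with FastQC, used HISAT2 for alignment to mRatBN7.2 (rn7) and featureCounts for the counts per gene. Their versions, the strand setting and the treatment of multiply mapped reads were not given in the sources used here. The deposited table holds raw counts of 30560 genes in 20 libraries, and its values were used unchanged.

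Groups and replicate numbers came from the sample labels. In R 4.3.3, edgeR 4.0.16 was used with TMM scaling, filterByExpr (minimum count 10, minimum total 15, leaving 14034 genes) and 1 quasi-likelihood model of the 8 groups without a block, with Benjamini-Hochberg adjustment over all genes. Log2 CPM used a prior count of 2. Alternatives were DESeq2 1.42.0, other scaling and filters, the compared groups alone, a replicate block, and leaving out each library. Summed pairs and Gapdh scaling were added after the data were seen. The scripts were tested on simulated data.

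Deviations from group means of same-numbered libraries were compared between groups by Pearson's r. After 1 week r was 0.626 to 0.777 and after 3 weeks 0.084 to 0.465. At 5 weeks it was 0.760 between 5w2 and 3w2→2w100, 0.802 between 5w100 and 3w100→2w2, and 0.168 to 0.245 across priming surfaces. With 2 libraries a group the deviations mirror each other, so each pair of 5-week groups gave a single r. No r of differently numbered libraries was set beside these values. The criterion for pairing was an r above 0.1. It was met at 1 and 5 weeks and, for the stiff surface, between 1 and 3 weeks (r = 0.114 to 0.349). Between 3 and 5 weeks it was met on either surface. There r was 0.448 and 0.420 for 3w2 with 5w2, and 0.447 and 0.391 for 3w100 with 5w100. This pairing comes from the data, not the labels.

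The 5 genes were set by a list of identifiers and not by measured values. Earlier results of these data were known when the genes and all comparisons were chosen. All 5 genes were described in each comparison, and of the genes most like each of them, known by identifier only, those for Slc2a1, Hk2 and Pkm are printed. Gene lists and cell type markers could not be used, since no table paired the identifiers with symbols. Promoter windows came from RefSeq (GRCr8) by symbol, and all 5 matched. Intervals are at 95%, and counting errors cover counting only.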

Additional observations from a re-analysis of the deposited data

How the results depend on the processing

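The number of genes called among the 5 changed as follows. With the replicate block it was 1 in 3w100 against 1w100 and 3 between priming surfaces, and the block changed no other call among the 5. Between priming surfaces it was 2 with DESeq2, and 0 on the compared groups alone, with summed pairs, with summed pairs and the block, and with Gapdh counts as library size. The fits that called 0 called 1.48%, 0.0787%, 3.27% and 5.19% of all genes in either direction, in the same order. With Gapdh counts 651 genes were called higher after stiff priming and 78 lower. Between 3 weeks and 1 week the number called among the 5 was 1 with Gapdh counts as library size. Leaving out single libraries gave 0 to 1 for 3w2 against 1w2, 1 to 2 for 3 weeks against 1 week and 0 to 2 between priming surfaces. Where edgeR called none of the 5, DESeq2 called none either. The cause of these changes was not tested. RLE size factors, no filter on low counts and a filter on a mean of 10 counts changed no call.

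Signs turned only for values that had not passed. With the replicate block, 5w100 against 3w100 became -0.051 for Slc2a1 and -0.066 for Pkm, 5 weeks against 3 weeks became -0.081 for Hk2, and 3w2→2w100 against 5w2 became -0.016 for Ldha. Leaving out single libraries gave log2 ranges across 0. For 1w100 against 1w2 these were -0.29 to 0.079 (Slc2a1), -0.28 to 0.12 (Hk2), -0.19 to 0.19 (Gapdh), -0.22 to 0.12 (Pkm) and -0.36 to 0.15 (Ldha). For 3w100 against 3w2 they were -0.18 to 0.11 (Hk2) and -0.082 to 0.066 (Gapdh). For 3w2 against 1w2 they were -0.26 to 0.00995 (Gapdh) and -0.37 to 0.00326 (Ldha). For the current surface they were -0.18 to 0.22 (Slc2a1), -0.15 to 0.23 (Gapdh), -0.091 to 0.096 (Pkm) and -0.20 to 0.31 (Ldha). For 3w2→2w100 against 5w2 they were -0.13 to 0.19 (Slc2a1), -0.32 to 0.11 (Hk2), -0.17 to 0.21 (Gapdh), -0.24 to 0.12 (Pkm) and -0.37 to 0.31 (Ldha). For 3w100→2w2 against 5w100 they were -0.40 to 0.39 (Slc2a1), -0.41 to 0.33 (Gapdh), -0.24 to 0.13 (Pkm) and -0.61 to 0.41 (Ldha). For 5w100 against 3w100 they were -0.33 to 0.46 (Slc2a1), -0.18 to 0.55 (Gapdh), -0.12 to 0.24 (Pkm) and -0.33 to 0.66 (Ldha). For 5 weeks against 3 weeks Hk2 ran from -0.062 to 0.15. For Gapdh they were also -0.27 to 0.058 (3w100 against 1w100), -0.55 to 0.19 (5w100 against 5w2), -0.14 to 0.59 (3w2→2w100 against 5w100) and -0.51 to 0.012 (3w100→2w2 against 5w2).

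With 2 libraries a group at 5 weeks, the spread of single comparisons limits what can be seen, more than counting does. Where leaving out a library left 1 in a group, that library was assumed to vary like the others.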
